A study of Mus musculus with 7 samples.

Results

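Expression of 10 lymphocyte and cytotoxic cell genes was examined in kidneys of LBR-null mice. The genes are those of 24328 gene lines in each deposited table whose symbol is Cd3e, Cd4, Cd8a, Cd79a, Ms4a1, Bank1, Gzma, Gzmb, Prf1 or Ifng. They comprise 3 T cell genes, 3 B cell genes and 4 genes of cytotoxic and interferon gamma-producing cells. The Lbr gene encodes the lamin B receptor (LBR), which binds B-type lamins and chromatin at the rim of the nucleus and also has a sterol reductase domain. Right kidneys came from 3 mice with 2 copies of Lbr ic-J, a mutation with loss of LBR function, and from 1 WT littermate, all on the C57BL/6J strain and 4 weeks old, and polyadenylated RNA was sequenced. LBR-null mice 4001 and 4007 and the WT mouse 4009 gave 2 libraries each, and LBR-null mouse 4002 gave 1. The allele is a germline mutation, so every cell of an LBR-null mouse carries it, the immune cells included.

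T cells recognise peptide antigens through the T cell receptor, whose signal passes through the CD3 chains, and the coreceptors CD4 and CD8 divide them into helper and cytotoxic cells. B cells carry an antibody as their receptor, which signals through CD79. Cytotoxic T cells and natural killer (NK) cells kill targets with granules of perforin and granzymes, and both release interferon gamma, which switches on antigen presentation and antiviral genes in the cells around them. A young, healthy kidney holds few resident lymphocytes beside its macrophages and dendritic cells. In bulk kidney RNA, fewer cells of a type and less RNA per cell cannot be told apart.

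The unit throughout is the normalized count, which is the reads on a gene divided by a size factor for the depth of the library. Libraries held 20694016 to 26333284 reads on genes, and 1 read was worth 0.787 to 1.15 normalized counts. Both libraries of a mouse were averaged before any comparison, and each mouse counted as 1 replicate. Lbr itself was at 378 ± 81.8 (SD, n = 3 mice) against 398 in WT, and whether the allele alters the transcript level is not known from these data, so Lbr does not check the genotype. Sex is not labelled. Xist, from the inactive X chromosome, was at 5785, 65.3 and 9940 in mice 4001, 4002 and 4007 and at 35.5 in WT. Ddx3y, which lies on the Y chromosome, had 141, 1516 and 44.3 in the same mice and 1284 in WT. All 4 mice had reads of both genes. Mouse 4002 had the WT pattern of low Xist and high Ddx3y, as in a male. Mice 4001 and 4007 had high Xist and lower Ddx3y, as in a female, and mouse 4001 had more Ddx3y than mouse 4007. In mice 4001 and 4007 a difference of sex from the WT mouse cannot be told apart from genotype. Whether the RNA of mouse 4001 holds some RNA of another mouse was not tested, and values of single mice are given where they bear on a result. The kidney label held in every library, with summed tubule and podocyte markers at 188009 to 407473 in LBR-null mice and 580511 in WT.

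All 10 genes were lowly expressed, with means over the 4 mice from 5.02 for Gzmb to 67.6 for Cd8a. Per kilobase of exon, the level in WT kidney was highest for Cd8a, at 43.1 normalized counts per kilobase, followed by Cd79a at 29.8. The other 8 genes lay between 1.68 per kilobase for Prf1 and 8.04 for Cd3e. In LBR-null kidneys the mean level per kilobase was 19.2 for Cd3e, 15.7 for Cd79a, 14.4 for Cd8a and 11.7 for Ifng, and the other 6 genes lay between 2.30 for Bank1 and 8.24 for Cd4. Cd8a was thus the most abundant of the 10 per length in WT, and Cd3e had the highest mean in LBR-null kidneys.

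The genes did not share a direction. Cd3e, Gzma and Ifng were higher in all 5 LBR-null libraries than in both WT libraries, Cd8a, Cd79a and Bank1 were lower in all 5, and the libraries of Cd4, Ms4a1, Gzmb and Prf1 overlapped. The share of all 17283 tested genes with every LBR-null library above both WT libraries was 25.5%, and 25.7% had every one below. Among the 5452 tested genes with a mean of 5 to 100, the shares were 32.6% and 17.9%. By group means, Cd3e, Gzma and Ifng were at least 2-fold higher in LBR-null kidneys and Cd8a, Bank1 and Gzmb at least 2-fold lower, so that 3 of 10 passed in each direction. Of all tested genes, 14.5% passed this rule upward and 7.04% downward, and of those with a mean of 5 to 100, 35.7% and 11.3% did. The median log2 difference, LBR-null minus WT on log2(normalized count + 1), was -0.29 over the 10 genes, 0.01 over all tested genes and 0.34 over tested genes with a mean of 5 to 100. Taken one at a time against WT, mouse 4001 had a median of -0.63, mouse 4002 of -0.04 and mouse 4007 of 0.15.

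**Figure D1:**
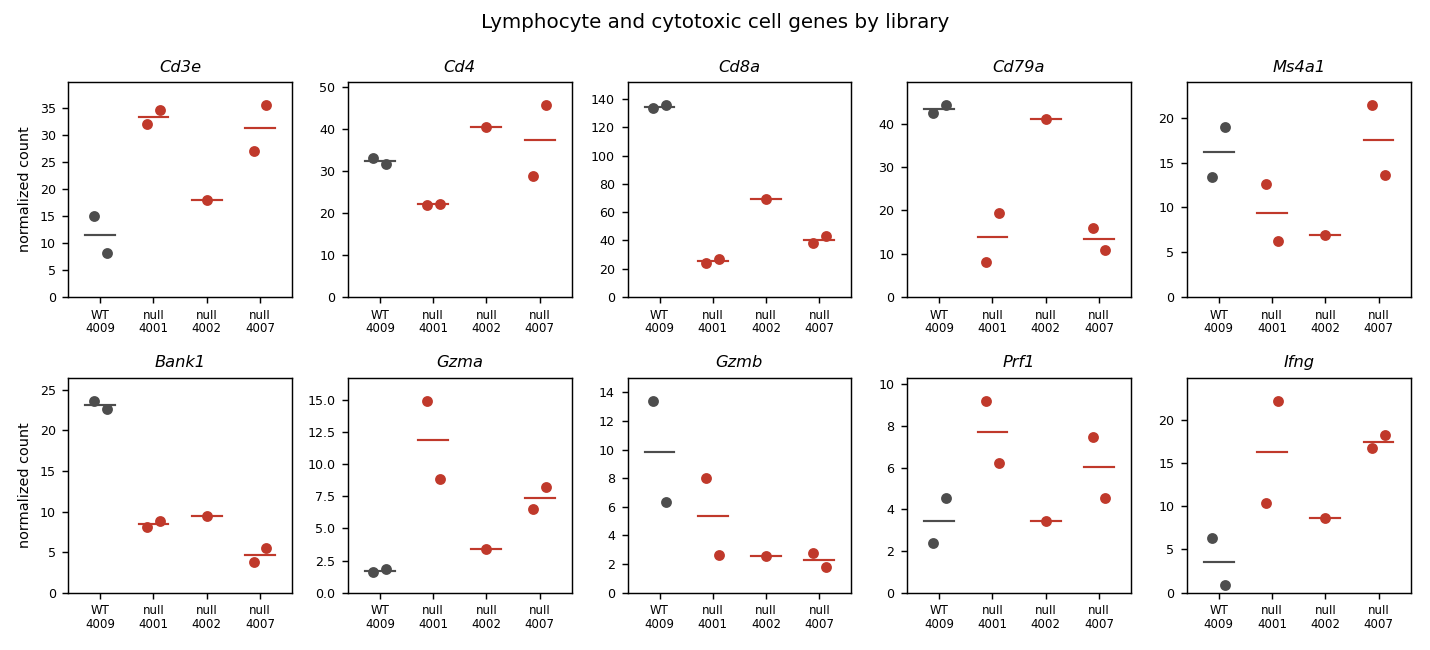
Normalized count (linear axes from 0) of each gene in every library, with WT mouse 4009 in grey and LBR-null mice 4001, 4002 and 4007 in red; points are libraries and lines are mouse means. Cd8a and Bank1 show the widest gaps downward, and Gzma and Ifng have all 5 LBR-null libraries above the WT ones.

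None of the 10 genes passed the test of the comparison. Using limma over 17283 genes with Benjamini-Hochberg adjustment, adjusted p ran from 0.208 for Cd8a to 0.994 for Cd4, and 0 of 10 genes passed an adjusted p of 0.05 with a 2-fold difference. The same limits called 0% of all tested genes. At an unadjusted p under 0.05, limma gave 1 of the 10 higher (Ifng) and 2 lower (Cd8a and Bank1), against 10.7% and 8.05% of all tested genes. On read counts recovered from the deposited values, edgeR gave 1 higher and 2 lower at the unadjusted level and DESeq2 gave 0 higher and 1 lower, and neither called any of the 10 after adjustment, with lowest adjusted p of 0.187 and 0.113. Over all 17283 genes, 1787 were higher and 1535 lower at the unadjusted level by edgeR, and 1765 and 1539 by DESeq2. The calls over all genes numbered 1 higher and 27 lower by edgeR, and 504 higher and 606 lower by DESeq2. With 1 WT mouse the spread between WT mice is unknown, and an exact permutation test of 3 mice against 1 cannot give a p below 0.25.

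**Figure D2:**
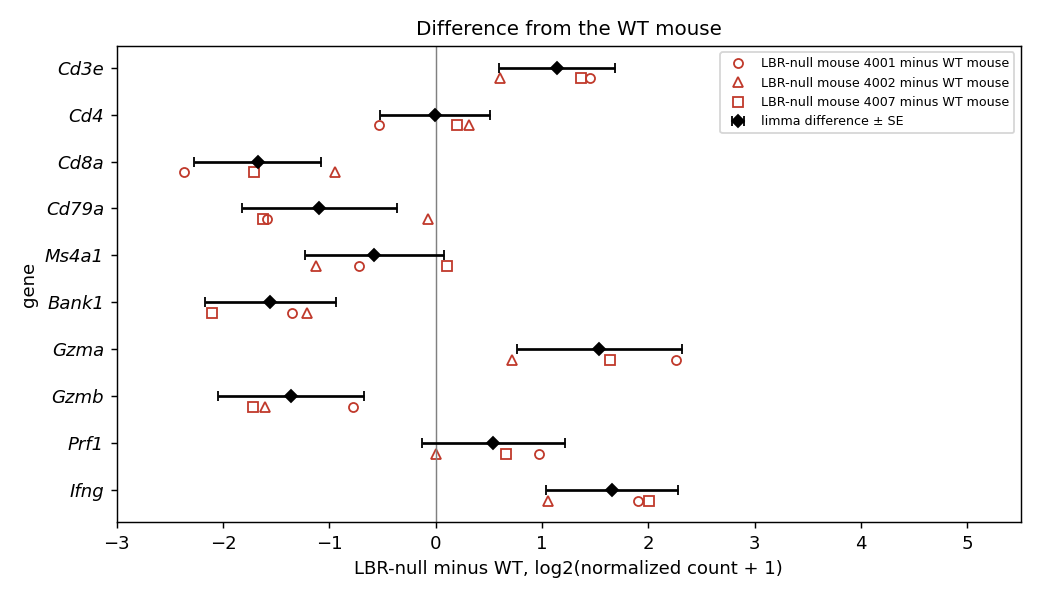
Difference from WT of each gene on log2(normalized count + 1), with the limma estimate and its standard error in black and each LBR-null mouse minus the WT mouse in red. Cd8a, Cd79a, Bank1 and Gzmb lie below 0 and Cd3e, Gzma and Ifng above 0 in all 3 mice, Cd4 and Ms4a1 have mice on both sides, and Prf1 of mouse 4002 is at the WT level with the other mice above it.

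Sequences upstream of the transcription start are shown for 2 pairs of functionally linked genes whose levels differed from WT in opposite directions. Each line holds the 250 bases before the start in the RefSeq promoter table of GRCm38.p6, each found exactly 1 time in the mm9 genome, written along the strand of the gene with CG dinucleotides in capitals. Cd3e is at chr9:44817695-44817944 (minus strand) and Cd8a at chr6:71323171-71323420 (plus strand). Gzma is at chr13:113891190-113891439 and Gzmb at chr14:56881172-56881421, both on the minus strand.
Cd3e: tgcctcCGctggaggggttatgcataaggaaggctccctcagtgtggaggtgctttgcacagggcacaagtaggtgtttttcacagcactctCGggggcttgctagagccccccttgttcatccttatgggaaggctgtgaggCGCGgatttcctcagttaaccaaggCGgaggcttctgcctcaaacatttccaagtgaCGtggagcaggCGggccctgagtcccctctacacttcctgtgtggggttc
Cd8a: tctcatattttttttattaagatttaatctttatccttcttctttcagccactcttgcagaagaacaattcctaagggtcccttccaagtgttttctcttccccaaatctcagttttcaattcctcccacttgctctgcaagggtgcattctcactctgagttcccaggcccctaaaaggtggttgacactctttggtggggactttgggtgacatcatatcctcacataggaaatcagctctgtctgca
Gzma: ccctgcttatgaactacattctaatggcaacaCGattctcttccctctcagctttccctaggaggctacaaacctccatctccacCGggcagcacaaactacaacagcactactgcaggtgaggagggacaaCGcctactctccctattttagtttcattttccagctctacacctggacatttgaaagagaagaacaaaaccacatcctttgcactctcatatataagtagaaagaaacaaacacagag
Gzmb: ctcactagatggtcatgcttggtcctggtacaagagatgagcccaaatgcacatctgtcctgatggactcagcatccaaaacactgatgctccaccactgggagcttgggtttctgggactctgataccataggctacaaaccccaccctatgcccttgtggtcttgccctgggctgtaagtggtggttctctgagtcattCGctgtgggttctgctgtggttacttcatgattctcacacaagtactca

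These stretches held 7 CG dinucleotides for Cd3e, 0 for Cd8a, 3 for Gzma and 1 for Gzmb. The table had an entry for 8 of the 10 genes. The remaining counts were 6 for Cd79a, 2 for Bank1, 4 for Prf1 and 6 for Ifng, beside a median of 6 over 27025 promoters. The study contrasts genes with and without a CpG island (CGI) at the start, and CGI- genes are its main concern. In mm9, 9 of the 10 genes had no window of 201 bases within 500 bases of a coding start with at least 50% GC and an observed over expected CpG ratio above 0.6. Cd8a had such a window, as did 70.1% of 19045 coding genes. Over the whole 500 bases on either side of its start, Cd8a had 49.95% GC and a ratio of 0.357. The rule is not the study's definition, which asks for both a database island and regions bound by a CxxC domain. It does not place a gene in the study's classes. Among 2517 tested genes without such a window, LBR-null kidneys had 32% at least 2-fold above WT and 15.6% at least 2-fold below. The letters TGTGGT, the core motif of RUNX factors, were searched on both strands, where the other strand reads ACCACA. They occurred 1 time upstream of Gzma (other strand), 2 times upstream of Gzmb and 1 time upstream of Prf1 (other strand), and in none of the other 5 stretches, while 14.2% of all promoters held them on either strand.

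Among the T cell genes, Cd3e was higher, Cd8a was lower, and Cd4 was at the WT level on average. Cd3e (chr9:44806826-44817673) encodes the epsilon chain of CD3. It was at 32.2 and 34.6 normalized counts in the libraries of mouse 4001, 18.1 in mouse 4002, 27.0 and 35.5 in mouse 4007, and 15.0 and 8.14 in WT. All LBR-null libraries lay above both WT libraries, and mouse 4002 came closest to them. The mean was 27.6 ± 8.31 (SD, n = 3 mice) against 11.6 in WT, and the log2 difference was 1.14 (SE 0.55, limma adjusted p = 0.329), or 0.79 with the first WT library alone and 1.60 with the second alone. The ratio of means was 1.84 with the first alone, which is under 2-fold, and 3.39 with the second alone.

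Cd8a (chr6:71323421-71329165) encodes the CD8 alpha chain of cytotoxic T cells, which a subset of dendritic cells also carries. It was at 24.1 and 26.6 in mouse 4001, 69.6 in mouse 4002, 38.2 and 42.8 in mouse 4007, and 134 and 136 in WT. Libraries of a mouse lay close together, and the highest LBR-null library was well below the lower WT library. The mean was 45.2 ± 22.5 (SD, n = 3) against 135 in WT, which is 2.98-fold lower, with a log2 difference of -1.67 (SE 0.60, limma adjusted p = 0.208). With 220 reads in the LBR-null libraries and 320 in WT, the ratio of pooled reads was 0.306, with an exact (Clopper-Pearson) 95% interval of 0.257 to 0.365. Such intervals cover counting error only, and reads from PCR-amplified libraries are not independent molecules.

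Cd4 (chr6:124814710-124838239), the coreceptor of helper T cells that some dendritic cells also express, was at 21.8 and 22.2 in mouse 4001, 40.4 in mouse 4002, 28.9 and 45.6 in mouse 4007, and 33.1 and 31.7 in WT. Mouse 4001 lay below WT and mouse 4002 above, and the libraries of mouse 4007 fell on either side. The mean was 33.2 ± 9.84 (SD, n = 3) against 32.4, a log2 difference of -0.01 (SE 0.52, limma adjusted p = 0.994). Cd4 relative to Cd8a was 0.867, 0.580 and 0.919 in the 3 LBR-null mice and 0.240 in WT.

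The partner chains of these genes did not show the same pattern. Cd3d and Cd3g, the delta and gamma chains, lie next to Cd3e on chromosome 9 (chr9:44789876-44795135 and chr9:44777655-44788514). Cd3d was at 5.45 ± 0.989 (SD, n = 3) against 14.3 in WT, with all 5 LBR-null libraries below both WT libraries (log2 difference -1.26, SE 0.58, limma adjusted p = 0.306). Cd3g was at 11.9 ± 2.23 against 21.6 and Cd247, the zeta chain, at 15.5 ± 3.83 against 21.4 (SD, n = 3), again lower in every LBR-null library. The ratio of Cd3e to Cd3d was 5.10, 3.50 and 6.75 in mice 4001, 4002 and 4007 and 0.806 in WT, and that of Cd3e to Cd3g was 2.70, 1.91 and 2.26 against 0.535. Cd3e thus stood apart from the chains it pairs with in all 3 LBR-null mice. Cd8b1, the CD8 beta chain restricted to T cells and encoded beside Cd8a (chr6:71272830-71287471), was at 14.9 and 6.21 in mouse 4001, 9.46 in mouse 4002, 8.38 and 10.9 in mouse 4007, and 8.66 and 4.52 in WT, so the groups overlapped. The ratio of Cd8a to Cd8b1 was 2.40, 7.36 and 4.19 in the 3 LBR-null mice and 20.4 in WT. Dendritic cell markers were measured beside it. Of 9 such markers, 5 were lower in every LBR-null library, Flt3 was higher and 3 overlapped, with a median log2 difference of -0.35. Of all tested genes, 25.7% were lower and 25.5% higher in every library. Among the lower ones, Xcr1 was at 2.95 ± 1.34 (SD, n = 3) against 21.2 in WT, Itgax at 9.21 ± 2.17 against 73.5 and Batf3 at 26.2 ± 12.1 against 77.9 (Batf3 was chosen after its values were seen), and the part of these cells in the level of Cd8a was not tested.

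**Figure D3:**
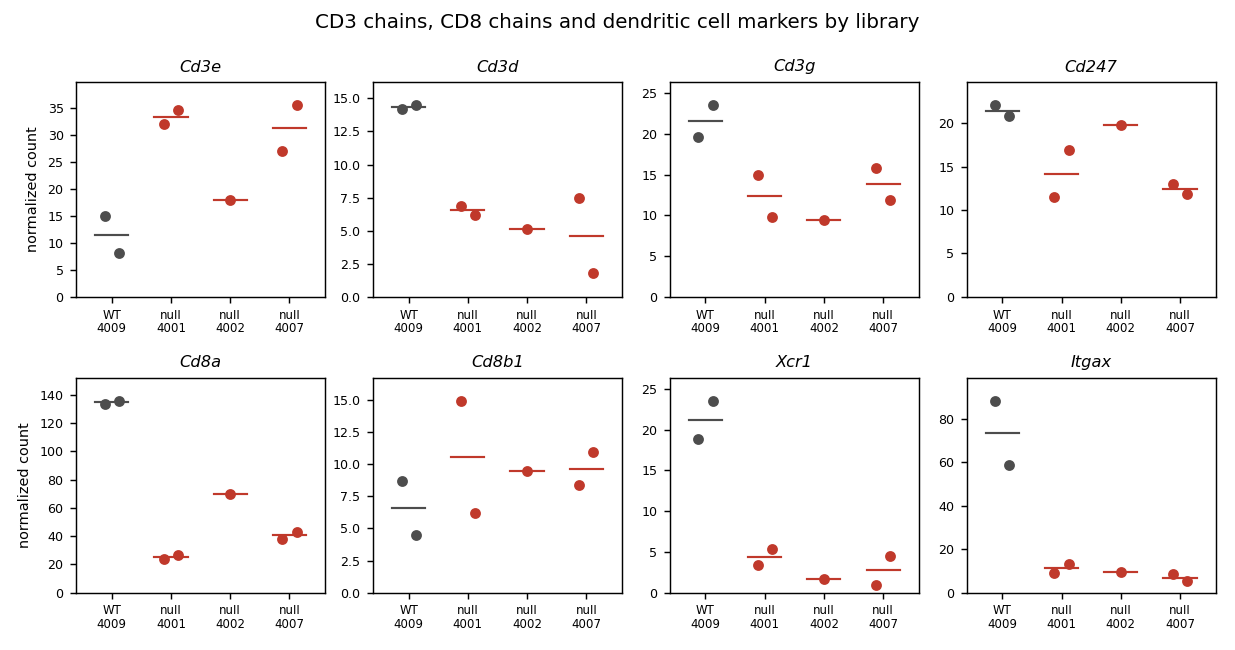
Normalized count (linear axes from 0) of the CD3 chains, the CD8 chains and the dendritic cell markers Xcr1 and Itgax in every library, with WT in grey and LBR-null in red; points are libraries and lines are mouse means. Cd3e is higher and Cd3d, Cd3g and Cd247 lower in the LBR-null libraries, Cd8a, Xcr1 and Itgax are lower in all of them, and Cd8b1 overlaps.

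The wider T cell lists were as divided as the 3 members. Of 13 T cell receptor and co-receptor genes, 11 entered the test and limma called 0. Over this and the lists below, counts of genes higher or lower in every LBR-null library are over the tested genes of a list and medians over all its genes, and 25.5% of all tested genes were higher and 25.7% lower by the same rule. Icos and Ctla4 were higher in every LBR-null library and Cd3d, Cd3g, Cd247, Cd27 and Thy1 were lower, and the median log2 difference of the list was -0.67. Ctla4, an inhibitory receptor of activated and regulatory T cells, was at 14.5 ± 5.17 (SD, n = 3) against 1.30 in WT (log2 difference 2.69, SE 0.65, limma adjusted p = 0.115). Icos, a costimulatory receptor, was at 23.4 ± 11.2 (SD, n = 3) against 9.86. Of 14 T cell signalling genes and transcription factors, 12 entered the test, 0 were called, 3 were higher in every LBR-null library, 1 was lower, and the median was 0.28. The kinases Lck and Zap70 and the adaptor Lat overlapped between groups. Foxp3, the factor of regulatory T cells, had a mean of 7.50 ± 3.68 (SD, n = 3) and 1.30 in WT. Bcl11b, a factor of T cell commitment, had a mean of 112 ± 34.6 (SD, n = 3) and 249 in WT. Of 11 homing and survival genes, all tested and 0 called, 3 were higher in every LBR-null library and 3 lower, with a median of -0.38. The counts of 3 of 12 and 3 of 11 higher and 3 of 11 lower are near the shares of all tested genes. They included the interleukin-2 receptor alpha chain Il2ra, at 20.8 ± 5.40 against 5.59, and the shared gamma chain Il2rg, at 60.0 ± 12.9 against 182 (SD, n = 3).

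Among the B cell genes, Cd79a and Bank1 were lower in every LBR-null library and Ms4a1 overlapped between groups. Cd79a (chr7:25682400-25687216), the alpha chain that signals for the B cell receptor, was at 8.04 and 19.5 in mouse 4001, 41.3 in mouse 4002, 15.8 and 10.9 in mouse 4007, and 42.5 and 44.3 in WT. Every LBR-null library was lower than both WT libraries, but mouse 4002 was close to them, at 0.95 of the WT level, while mice 4001 and 4007 were at 0.317 and 0.308 of it. The mean was 22.8 ± 16.0 (SD, n = 3) against 43.4, with a log2 difference of -1.10 (SE 0.73, limma adjusted p = 0.469).

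Ms4a1 (chr19:11324654-11340669), which encodes CD20, was at 12.6 and 6.21 in mouse 4001, 6.88 in mouse 4002, 21.4 and 13.7 in mouse 4007, and 13.4 and 19.0 in WT. Mouse 4007 overlapped the WT libraries and mice 4001 and 4002 lay below them. The mean was 11.3 ± 5.57 (SD, n = 3) against 16.2 (log2 difference -0.58, SE 0.65, limma adjusted p = 0.683).

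Bank1 (chr3:135716327-135989030) encodes a scaffold protein of B cell receptor signalling. It was at 8.04 and 8.87 in mouse 4001, 9.46 in mouse 4002, 3.73 and 5.47 in mouse 4007, and 23.6 and 22.6 in WT. Its LBR-null libraries all lay well under the WT libraries, and each LBR-null mouse was under the WT level by at least 2-fold. The mean was 7.50 ± 2.57 (SD, n = 3) against 23.1, which is 3.08-fold lower, with a log2 difference of -1.55 (SE 0.61, limma adjusted p = 0.245). The ratio of pooled reads was 0.308, with an exact 95% interval of 0.198 to 0.474 from 38 and 55 reads.

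Of 12 B cell receptor and surface genes, 10 entered the test, limma called 0 and DESeq2 called Cd72 lower. Of the tested genes, Cd22, Cr2 and Cd72 were lower in every LBR-null library, none was higher in every one, and the median log2 difference was -0.65. Of all tested genes, 25.7% were lower in every library. Cd79b, the partner of Cd79a, was at 53.8 ± 16.8 (SD, n = 3) against 69.0, and its libraries overlapped between groups. Cd72, an inhibitory receptor of B cells, was at 19.9 ± 11.8 against 116 (log2 difference -2.62, SE 0.65, limma adjusted p = 0.119). Of 12 B cell signalling genes and transcription factors, all tested and 0 called by limma, Pax5, Spib, Syk, Lyn and Ralgps2 were lower in every LBR-null library. None was higher, the median was -0.40, and DESeq2 called Syk lower. Pax5, the factor of B cell identity, was at 9.31 ± 3.13 (SD, n = 3) against 17.5.

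The cytotoxic genes were split, with Gzma and Ifng higher, Gzmb lower in the mean and Prf1 overlapping. Gzma (chr13:113884033-113891187) encodes granzyme A, a serine protease of cytotoxic granules. It was at 14.9 and 8.87 in mouse 4001, 3.44 in mouse 4002, 6.52 and 8.20 in mouse 4007, and 1.57 and 1.81 in WT. Every LBR-null library exceeded both WT libraries, with mouse 4002 nearest to them. The mean was 7.57 ± 4.23 (SD, n = 3) against 1.69, a 4.47-fold difference that rests on 4 reads in WT, and the log2 difference was 1.54 (SE 0.77, limma adjusted p = 0.347). The ratio of pooled reads was 4.79, with an exact 95% interval of 1.74 to 18.4.

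Gzmb (chr14:56877693-56881097) encodes granzyme B, the protease that activates caspases in target cells. It was at 8.04 and 2.66 in mouse 4001, 2.58 in mouse 4002, 2.79 and 1.82 in mouse 4007, and 13.4 and 6.33 in WT. The first library of mouse 4001 lay between the WT libraries and the other 4 lay below both. The mean was 3.41 ± 1.68 (SD, n = 3) against 9.86, with a log2 difference of -1.36 (SE 0.69, limma adjusted p = 0.347). The 2-fold difference depended on the libraries used. WT exceeded LBR-null 3.92-fold with the first WT library alone and 1.86-fold with the second alone, where Gzmb no longer passed the filter. With the last library of each mouse, which also leaves out the first library of mouse 4001, Gzmb was again at least 2-fold lower. The ratio of Gzma to Gzmb was 2.22, 1.33 and 3.19 in mice 4001, 4002 and 4007 and 0.172 in WT.

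Prf1 (chr10:60760584-60767011) encodes perforin, which opens the target cell membrane to granzymes. It was at 9.19 and 6.21 in mouse 4001, 3.44 in mouse 4002, 7.45 and 4.56 in mouse 4007, and 2.36 and 4.52 in WT. Mouse 4002 was at the WT mean and the other mice were higher. The mean was 5.71 ± 2.14 (SD, n = 3) against 3.44 (log2 difference 0.54, SE 0.67, limma adjusted p = 0.712), and the ratio was 2.42 with the first WT library alone and 1.26 with the second alone.

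Ifng (chr10:117878103-117882948) encodes interferon gamma. It was at 10.3 and 22.2 in mouse 4001, 8.60 in mouse 4002, 16.8 and 18.2 in mouse 4007, and 6.30 and 0.905 in WT. All LBR-null libraries were higher than both WT libraries, which themselves were far apart. The mean was 14.1 ± 4.82 (SD, n = 3) beside 3.60, a 3.92-fold difference. The log2 difference was 1.66 (SE 0.62, limma adjusted p = 0.226) with both WT libraries, 0.99 with the first alone and 2.93 with the second alone, so the size of the difference depended on which WT library was used. The ratio of pooled reads was 4.06, with an exact 95% interval of 2.04 to 9.19 from 82 and 9 reads.

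The other genes of cytotoxic cells did not follow a common direction either. Of 14 NK cell receptors and markers, 6 entered the test and 0 were called, and Klra4 and Klra8 were listed at 0 in every library. Of the tested genes, Klrk1, an activating NK receptor, and Nkg7, a granule protein, were lower in every LBR-null library and 0 were higher, with a list median of -0.03. Ncr1, also an activating receptor, was under the filter, with 32 reads in the LBR-null libraries and 3 in WT. Of 16 cytotoxic granule genes, 8 entered the test, 0 were called, 2 were higher in every LBR-null library, 2 were lower, and the median was 0.08. Both counts are near the shares of all tested genes, 25.5% higher and 25.7% lower. Rab27a and Serpinb9 were the higher ones, with Rab27a at 1210 ± 481 (SD, n = 3) against 461 in WT. Ctsw and Stx11 were the lower ones, and Ctsw, a cathepsin of cytotoxic cells, was at 5.39 ± 0.694 (SD, n = 3) against 25.8 in WT. Among the genes under the filter, Gzmc and Gzmk were higher in every LBR-null library, with 19 and 25 reads against 1 and 2 in WT, and none was lower. Of 9 lineage transcription factors and chemokines, 7 entered the test and 0 were called. Tbx21 and Runx3, factors that drive cytotoxic programmes and Ifng, were at 30.6 ± 7.90 against 7.83 and 73.6 ± 21.0 against 35.2 (SD, n = 3), while Id2, Zeb2 and Ccl5 were lower in every LBR-null library, and the list median was -0.46.

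Genes of the induction and the response of interferon gamma were read beside Ifng. Of 8 genes of its induction, all tested and 0 called by limma, Il18r1 and Stat4 were higher in every LBR-null library, 6 overlapped with WT, and the median log2 difference was 0.56. Of 13 receptor and target genes, all tested and 0 called by limma, Ifngr1 and Jak2 were higher in every LBR-null library and 5 were lower, among them Irf1, Ciita, Gbp2 and Icam1, with a median of -0.49, while the shares of all tested genes were 25.5% higher and 25.7% lower in every library. The difference between the lists was not tested. Ciita, the activator of MHC class II genes, was at 28.1 ± 1.77 (SD, n = 3) against 77.6, and Gbp2, an interferon-induced GTPase, was at 131 ± 69.2 against 409. Of the 129 genes in all 11 T cell, B cell, plasma cell, cytotoxic and interferon gamma lists, 104 entered the test. Of these, limma and edgeR called 0, and 7 were higher and 14 lower at an unadjusted limma p under 0.05, a level that 10.7% and 8.05% of all tested genes reached. DESeq2 called 1 of the 104 higher and 5 lower, beside 2.92% and 3.51% of all tested genes (0.00579% and 0.156% by edgeR), and Il2rg, Cd72, Syk and Gbp2 were among the lower ones.

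**Figure D4:**
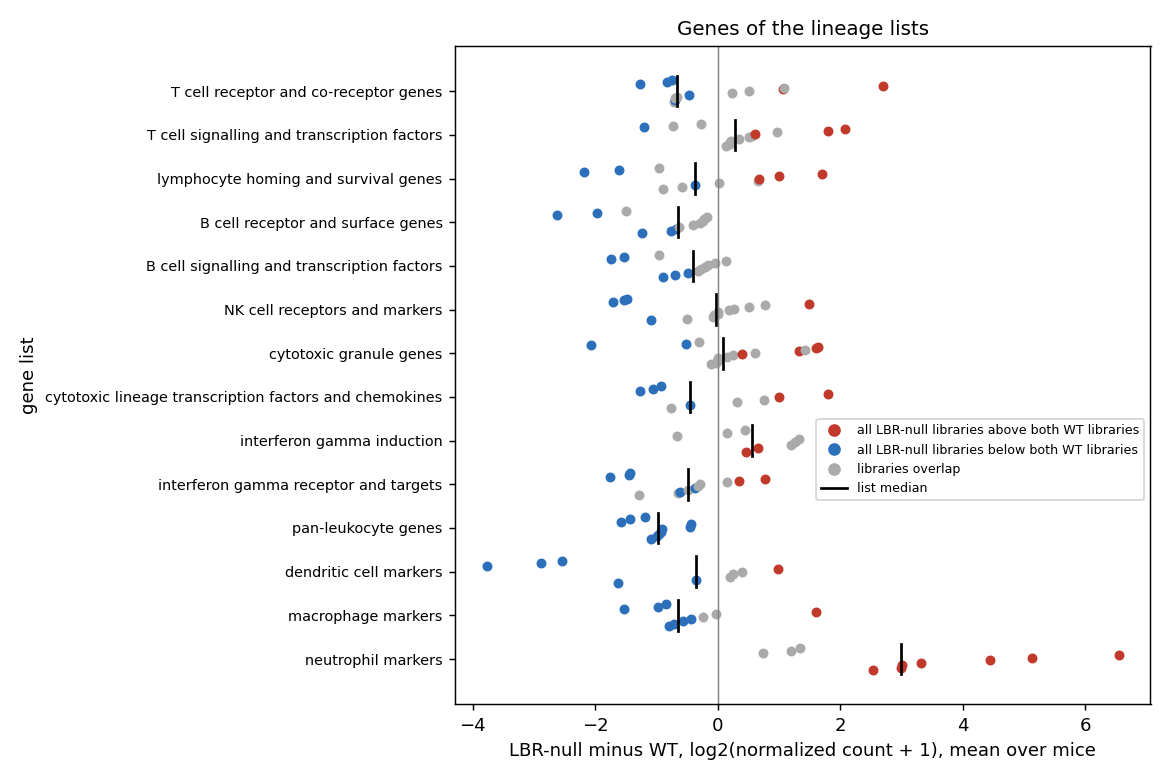
Difference LBR-null minus WT on log2(normalized count + 1), mean over mice, for each gene of the lineage lists (members excluded); colour gives whether all LBR-null libraries lie above (red) or below (blue) both WT libraries or overlap (grey), and black bars are list medians. B cell and pan-leukocyte genes lie mostly below 0, neutrophil markers above 0, and T cell and cytotoxic lists span both sides.

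The summed level of the 3 T cell genes was 80.7 to 128 in LBR-null mice and 179 in WT, that of the 3 B cell genes 31.7 to 57.6 against 82.7, and that of the 4 cytotoxic genes 18.1 to 41.2 against 18.6. The T cell sum was lower through Cd8a alone, since Cd3e plus Cd4 was at 55.4, 58.5 and 68.5 in mice 4001, 4002 and 4007 against 43.9 in WT. Markers of other leukocytes were read beside them. All 10 pan-leukocyte genes were lower in every LBR-null library, with a sum of 810 to 939 against 1755 in WT, while 25.7% of all tested genes, and 17.9% of those with a mean of 5 to 100, were lower in every library. Limma and edgeR called 0 of them, and DESeq2 called Coro1a, Laptm5 and Cd52 lower. Among them Ptprc, which encodes CD45 of all leukocytes, was at 182 ± 31.6 (SD, n = 3) against 247. The paper reports infiltration by CD45-positive leukocytes in stained sections of LBR-null kidneys. That is a measure of protein in tissue, and it was not compared with the RNA here. Relative to Ptprc, Cd3e was at 0.170, 0.124 and 0.153 in the 3 LBR-null mice and 0.0468 in WT, and Cd8a was at 0.129, 0.476 and 0.198 against 0.546. Cd79a relative to Ptprc was at 0.0703, 0.282 and 0.0654 against 0.176 and lay on both sides of WT. Ptprc was among the least lowered of the 10 genes. Relative to the sum of all 10, Cd3e was at 0.0397, 0.0223 and 0.0333 against 0.00658 and so was higher in all 3 mice by either measure. Cd8a was at 0.0301, 0.0860 and 0.0431 against 0.0768 by that sum, so that mouse 4002 was above WT and the lower Cd8a of this mouse held relative to Ptprc but not to the sum.

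Of 10 macrophage markers, 7 were lower in every LBR-null library and 1, Cd163, was higher, with sums of 3259 to 3606 against 4643. Of 9 dendritic cell markers, 5 were lower and 1, Flt3, was higher, with sums of 301 to 364 against 487. Of 10 neutrophil markers, 7 were higher and 0 lower, with sums of 457 in mouse 4002, 1093 in mouse 4001 and 2549 in mouse 4007 against 107 in WT. Of 10 kidney markers, 6 were lower and 1, Slc12a1, was higher. The shares of all tested genes were 25.5% higher and 25.7% lower. Limma and edgeR called 0 of these markers. DESeq2 called 1 macrophage and 5 neutrophil markers higher and 2 dendritic cell and 2 kidney markers lower, beside 2.92% of all tested genes higher and 3.51% lower. These markers differed from WT in the same mice as the lymphocyte genes, and their part in the differences was not tested.

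**Figure D5:**
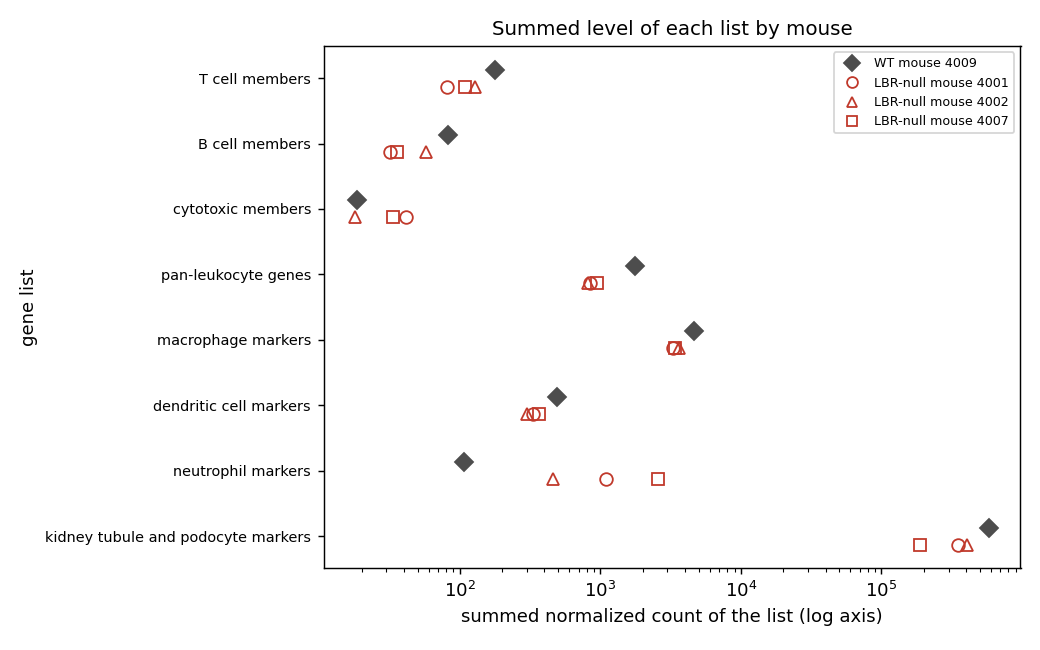
Summed normalized count of each list (log axis) in WT mouse 4009 and LBR-null mice 4001, 4002 and 4007; each symbol is 1 mouse. LBR-null mice lie below WT for the sum of the 3 T cell genes, through Cd8a alone, for that of the 3 B cell genes and for the pan-leukocyte, macrophage, dendritic and kidney lists and above it for neutrophil markers, and the 4 cytotoxic genes of mouse 4002 are at the WT level.

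The 3 LBR-null mice differed among themselves in these genes. The fold between the highest and the lowest of them was 1.84 for Cd4 at the least and 3.46 for Gzma at the most. Mouse 4002 held the highest Cd8a, Cd79a and Bank1 and the lowest Cd3e, Gzma, Prf1 and Ifng, and so lay nearest to WT for all of these. Mouse 4002 was also the LBR-null mouse with the WT pattern of Xist and Ddx3y, and sex and genotype cannot be told apart in mice 4001 and 4007. Taken alone against WT, mouse 4002 was at least 2-fold higher for Gzma and Ifng and at least 2-fold lower for Ms4a1, Bank1 and Gzmb. In this mouse the ratio to WT was 2.03 for Gzma, 2.39 for Ifng and 0.409 for Bank1. It was 1.56 for Cd3e and 0.517 for Cd8a. Mouse 4001, taken alone, was 2-fold higher for Cd3e, Gzma, Prf1 and Ifng and 2-fold lower for Cd8a, Cd79a and Bank1. Mouse 4007 was 2-fold higher for Cd3e, Gzma and Ifng and 2-fold lower for Cd8a, Cd79a, Bank1 and Gzmb. Gzma, Ifng and Bank1 were past 2-fold in each of the 3 mice. The 3 ratios of a gene share the same WT value, which rests on 4 reads for Gzma and 9 for Ifng. The share of all genes past 2-fold in single mice was not counted.

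Across the 7 libraries, the pattern of each gene with a mean of at least 20 was set against all tested genes. The genes most like Cd8a by Pearson correlation of log2(normalized count + 1) were Kif12, Col18a1 and Trp53, each with r = 0.998. Those most like Cd3e were Ccnb3, Oacyl and Phkg1, with r from 0.984 to 0.988. Those most like Cd4 were Phldb1, Gtpbp6 and Gm13003, with r from 0.970 to 0.989. For Cd79a they were Prokr1, Nkg7 and Epha7, with r from 0.981 to 0.992, and Nkg7, a granule protein of NK cells and cytotoxic T cells, was at 4.51 ± 4.29 (SD, n = 3) against 13.9 in WT. These libraries share 4 mice and 2 genotypes, and 1392 tested genes had r above 0.9 with Cd8a, 716 with Cd3e, 251 with Cd79a and 102 with Cd4, so the correlations are descriptions. Among the 10 genes, r was 0.94 between Cd3e and Ifng, 0.86 between Cd8a and Cd79a and -0.97 between Cd8a and Gzma.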

How the data were processed

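Polyadenylated kidney RNA from 3 LBR-null mice (5 libraries) and 1 WT littermate (2 libraries) had been sequenced as paired-end reads. Reads had been mapped to the mm9 genome using STAR 2.6.0, and the authors deposited, per library, a signal for each of 24328 gene lines, namely counts divided by the size factor from DESeq2 1.25.1. The counting program and annotation are not given in the sources used here. All deposited values (100%) were whole multiples of 1 read within 0.01 read, so reads were recovered by division, 20694016 to 26333284 per library. Strand-specific counting is not stated. 2 symbols on 2 lines each were kept apart.

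Libraries were averaged within a mouse. limma 3.58.1 (R 4.3.3, eBayes with trend) was run on log2(normalized count + 1) of mouse means. The 17283 genes whose mean over mice reached 5 were tested and p-values adjusted over all of them (Benjamini-Hochberg), and a call needed an adjusted p under 0.05 and a 2-fold difference. The fit has 2 residual degrees of freedom and assumes that the lone WT mouse varies as LBR-null mice do. edgeR 4.0.16 (quasi-likelihood) and DESeq2 1.42.0 were run on recovered reads summed per mouse. The limma, edgeR and DESeq2 fits were tested on simulated data. The genes changed there had higher means than every gene examined here except Cd8a, so the fits were not tested at the level of the others. The 2-fold rule compared the mean over LBR-null mice with WT.

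The 10 genes and the 18 other gene lists were chosen with earlier results of these data known. Genes named from a list are its first 3 and up to 3 tested genes per direction with the largest log2 difference among those with all 5 LBR-null libraries on one side of both WT libraries, beside the 3 genes most correlated with a member whose mean was at least 20, Lbr and Ptprc. The ratios between genes and to list sums, the sum of Cd3e and Cd4, Cd8b1, Batf3, other genes given beside a count, the range of means of 5 to 100 and the use of 1 WT library at a time were chosen after values were seen. Promoters are from RefSeq and gene coordinates from GENCODE models on mm9. Alternatives were other scalings, pseudocounts, filters, tools, and leaving out libraries or mice. Values of some genes of the lists are not reported here.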

Additional observations from a re-analysis of the deposited data

Results flagged for a closer look

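In mouse 4001, the first library held 8.04 normalized counts of Gzmb, while the other 4 LBR-null libraries held 1.82 to 2.79. The gap to the nearest library was 0.844 of the range of the 5 libraries, above the critical value of 0.71 of Dixon's test. The second library of the same mouse was at 2.66. All 10 genes were examined in this way and 1 was past the critical value, where chance flags about 1 in 20 groups, and libraries of 1 mouse are not independent.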

How the results depend on the processing

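With 1 WT mouse, every difference rests on its 2 libraries, and at 40 to 540 reads per gene over all libraries, counting error is large for Gzma, Gzmb, Prf1 and Ifng. None of the genes tested was called under any of 15 alternatives, some of which tested only 7 to 9 of the 10, with lowest adjusted p from 0.0756 (without mouse 4002) to 0.494 (without mouse 4007). Without mouse 4001 only 7 of the 10 genes passed the filter, and 9 did without mouse 4007, so no value was had for Gzma, Gzmb and Prf1 or for Prf1. Over all genes limma called 505 higher and 658 lower without mouse 4001, 338 and 287 without mouse 4002, and 0 without mouse 4007, against 0 with all mice. Adding 5 to both group means left 1 gene (Ifng) at least 2-fold higher, against 3, and 2 genes (Cd8a and Bank1) lower. The first library of each mouse alone gave 2 genes 2-fold higher, Gzma and Prf1. Leaving out a mouse gave 3 genes 2-fold higher each time and 3 to 4 lower, and a median log2 difference over the 10 genes of -0.47 to -0.13, and the other alternatives gave medians of -0.52 to -0.13. Of 139 refits of single genes, 135 kept the direction. The 4 that turned were all of Cd4, at 0.12 with the last library of each mouse, 0.25 without mouse 4001 (range over left-out mice -0.17 to 0.25), 0.021 with the second WT library alone and 0.011 in edgeR. The cause was not tested. The use of 1 WT library at a time was chosen after seeing the data. No paired analysis was possible because replicate numbers count libraries of 1 mouse, and no mouse is in both groups.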

Other observations

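Plasma cells are the antibody-secreting descendants of B cells. Of 7 plasma cell genes, 6 entered the test, limma called 0, 2 were higher in every LBR-null library and 0 were lower, with a median log2 difference of 0.28, while 25.5% of all tested genes were higher in every library and 25.7% lower. Jchain, which joins antibody units into polymers, had a mean of 12.4 ± 2.09 normalized counts (SD, n = 3) beside 8.85 in WT, and Mzb1 was at 99.1 ± 31.6 against 90.6, both with overlapping libraries. Derl3, a factor of protein quality control in secretory cells, was at 37.7 ± 13.3 against 19.9, and Sdc1, which epithelial cells also express, at 711 ± 117 against 582.

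Of 9 mast cell markers, 6 entered the test and limma called 0. Kit, also expressed outside mast cells, was higher in every LBR-null library and Ms4a2, the beta chain of the IgE receptor, was lower, at 12.3 ± 11.6 (SD, n = 3) against 61.7. Of 7 lymph node stroma markers, 4 entered the test and limma called 0, Ccl21a was listed at 0 in every library, and Cxcl13, a chemokine that attracts B cells, was lower in every LBR-null library, at 7.92 ± 2.08 (SD, n = 3) against 15.6.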
